A study of Mus musculus with 15 samples.

Results

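The genes described here are 35 transcripts of marrow lineages other than the macrophage, among the 53465 rows of the count matrix of an RNAseq study of mouse bone marrow-derived macrophages (BMDMs). They were selected by symbol, as known products of neutrophils and their precursors (17 genes), megakaryocytes and platelets (8 genes), stem and progenitor cells (5 genes), and basophils, mast cells and eosinophils (5 genes). All 35 symbols matched 1 row each. The choice was made with results of these data in view, namely that genes of this kind were lower in cytokine-treated than in control BMDMs, so every comparison with control is a description: calls there are counted beside those of all genes and no p-value is printed. IL-6 co-addition on top of IL-4 or of IL-13 is compared by test.

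BMDMs are macrophages grown from marrow in culture, here for 7 days with 20 ng/ml M-CSF and 10% FBS. The study's methods describe mononuclear cells, isolated on a density gradient from the femur and tibia of mice aged 8 to 12 weeks, and which mice gave the RNAseq libraries was not stated separately. Mature BMDMs then received no cytokine (control), IL-4 at 10 ng/ml, IL-4 with IL-6 at 40 ng/ml (IL-4+IL-6), IL-13 at 40 ng/ml, or IL-6 and IL-13 at these doses together (IL-6+IL-13) for 24 h. There was no group with IL-6 alone, and the 5 groups held 3 libraries each. The replicates are labelled as separate samples without naming animals or cultures, so p-values measure the spread between these samples.

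Marrow holds the precursors of most blood cells. Neutrophils are built in a set order, in which promyelocytes transcribe the enzymes of the primary (azurophil) granules and later stages transcribe the secondary and tertiary granule proteins, while megakaryocytes load the platelets they shed with chemokines and with the receptors used in clotting. M-CSF is the growth factor that drives marrow cells toward monocytes and macrophages.

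The libraries held 17001352 to 18918686 counts, and all 12 genes of a macrophage list were expressed, with a sum of 20906 to 23346 normalized CPM (counts scaled to library size with TMM factors) in control and 13664 to 22624 CPM in the cytokine groups. IL-4+IL-6 replicate 2 and IL-13 replicate 1 stood apart from the other libraries of their groups: the mean chi-square per gene between pairs of libraries was 23.8 and 42.2 for the former against 6.97 for the other pair of its group, and 20.6 and 15.9 for the latter against 3.75, while pairs of control and of IL-4 libraries were at 2.60 to 3.88. The called changes of members with IL-6 on IL-4 or on IL-13 are given below with and without the one in their own setting; other values are given with both. Lyz2 and Cd68 led the macrophage list in control at a mean of 11836 and 1094 FPKM (counts per length and depth, the only scale used here to set genes side by side). Lists of other cell types also moved with treatment. The erythroid list (1 of 12 genes tested) summed to 3.75 to 5.16 CPM in control and to at most 0.907 CPM in any cytokine library, where Hbb-bs was at 0. The T and NK cell list (1 of 12 tested, with Cd3e at 0 throughout) summed to 1.33 to 2.13 CPM in control and at most 1.30 CPM elsewhere, and the B cell list (8 of 12 tested) to 282 to 293 CPM in control and 93.3 to 206 CPM elsewhere. The stromal and endothelial list (6 of 12 tested) summed to 39.7 to 48.7 CPM in control and 8.13 to 42.3 CPM elsewhere, with Col1a1 at 0 in all cytokine libraries, and the dendritic cell list (9 of 10 tested) to 309 to 347 CPM and 62.6 to 372 CPM. Their part in the results below was not tested.

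In the control BMDMs several of these transcripts were plentiful. The 35 genes together summed to 1205 to 1338 CPM in the control libraries, against 202 to 212 CPM with IL-4, 287 to 384 CPM with IL-4+IL-6, 184 to 197 CPM with IL-13 and 425 to 482 CPM with IL-6+IL-13. In the cytokine groups Pf4 and Vwf carried most of this sum, with means of 68.6 and 114 CPM with IL-4 and of 75.4 and 85.2 CPM with IL-13. CPM does not correct for gene length. By FPKM, Pf4 was above Vwf, at means of 96.3 and 7.19 with IL-4 and of 107 and 5.45 with IL-13. In bulk RNA, fewer cells of a type and less RNA per cell cannot be told apart. In control the highest by FPKM was S100a9, a subunit of the neutrophil protein calprotectin, at 313 ± 27.7 FPKM (mean ± SD, n = 3). It was rank 104 of all genes. It was followed by the platelet chemokines Ppbp (160 ± 9.18 FPKM) and Pf4 (141 ± 11.4 FPKM), then Ngp (111 ± 9.46 FPKM) and S100a8 (91.1 ± 10.2 FPKM). Neighbors in this order did not overlap between control libraries, if narrowly: the lowest Ppbp library (150 FPKM) lay just above the highest Pf4 library (148 FPKM). The stem and progenitor genes were far lower, from Cd34 at 1.70 ± 0.479 FPKM to Erg at 0.363 ± 0.145 FPKM. Ly6g and Fcer1a were lowest with 6 and 7 counts over the 3 control libraries, and were the only members that did not pass the filter on low counts.

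**Figure D1:**
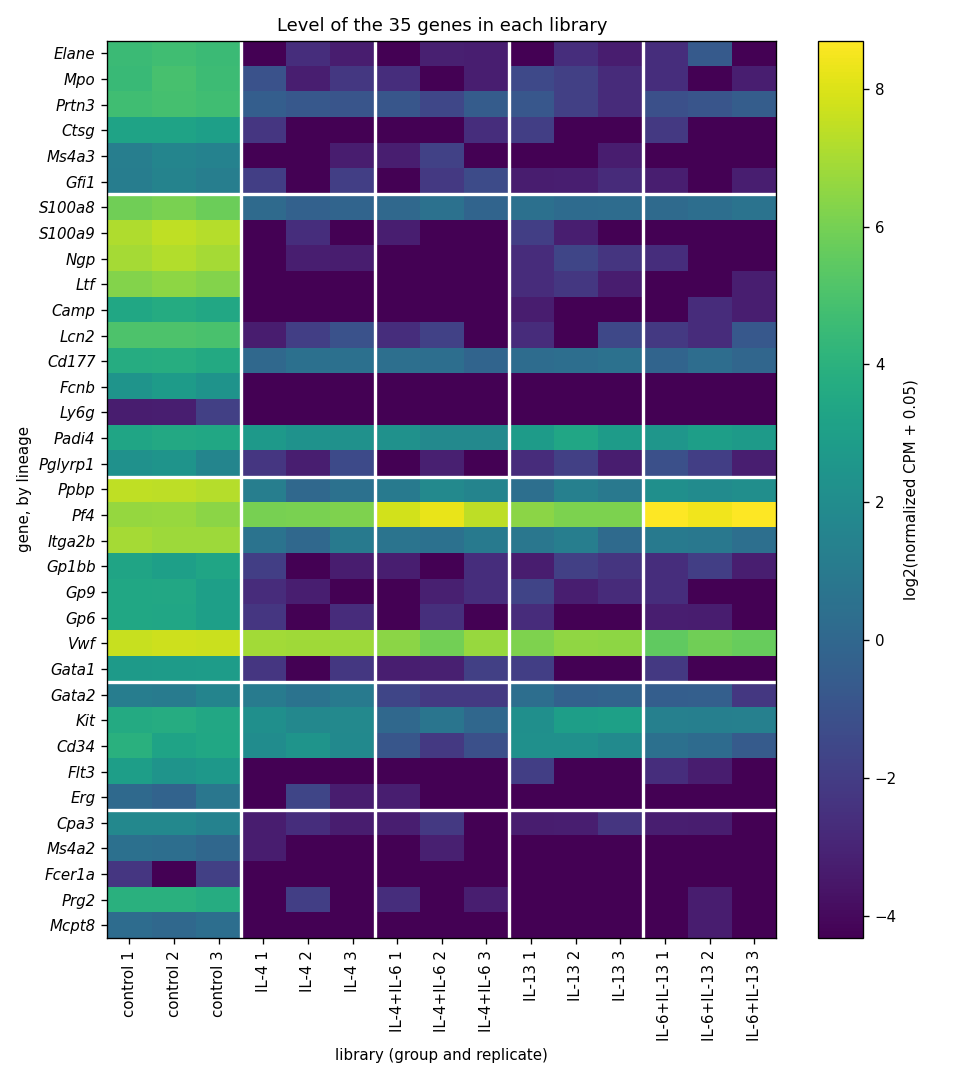
Level of the 35 genes, as log2 of the normalized CPM plus 0.05 (color), in each of the 15 libraries (columns, by group and replicate), with genes as rows in 5 blocks: primary granule, later neutrophil, megakaryocyte and platelet, stem and progenitor, and basophil, mast cell and eosinophil. The control columns stand apart in nearly all rows, while S100a8, Cd177, Padi4, Ppbp, Pf4, Itga2b, Vwf and Kit hold over 10 counts in every cytokine library, as do Gata2 with IL-4 or IL-13 and Cd34 in all groups but IL-4+IL-6.

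In the cytokine groups, most of these transcripts were at or near the limit of detection. With at most 3 counts in every library taken as that limit, it was reached by 0 of 35 genes in control, 17 with IL-4, 20 with IL-4+IL-6, 14 with IL-13 and 20 with IL-6+IL-13. Of the 33 genes tested, 32 were called lower and 0 higher with IL-4 than in control (edgeR's quasi-likelihood test, Benjamini-Hochberg adjusted p under 0.05 over all 13938 genes), where 35.9% of all tested genes were called lower and 32.1% higher. With IL-13 it was 33 lower and 0 higher, against 31.1% and 29.0% of all genes. With IL-4+IL-6 it was 32 lower and 1 higher (37.5% and 35.4% of all genes), and with IL-6+IL-13 32 lower and 1 higher (32.1% and 31.9% of all genes). The higher gene was Pf4 in both. These counts describe how the genes were chosen, since they passed the filter through the control libraries, and the 4 comparisons share those libraries.

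How much was left varied widely among the 35 genes. Counts were summed over the libraries of a group and scaled, and the share of the control level is given with an exact 95% interval that covers counting error only. In every cytokine group 13 genes were under 1% of control (among them Ly6g and Fcer1a at 0, whose few control counts set no such limit), 12 more had their highest share between 1% and 5%, 4 (Gfi1, Cd177, Pglyrp1 and Erg) between 5% and 20%, and 6 (Padi4, Pf4, Vwf, Gata2, Kit and Cd34) at 20% or above. Padi4, Pf4 and Fcer1a were the members with a cytokine library at or above the lowest control library in normalized CPM. The same was not counted over all genes. The members were chosen with lower levels after cytokine in view, so this too describes the choice.

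**Figure D2:**
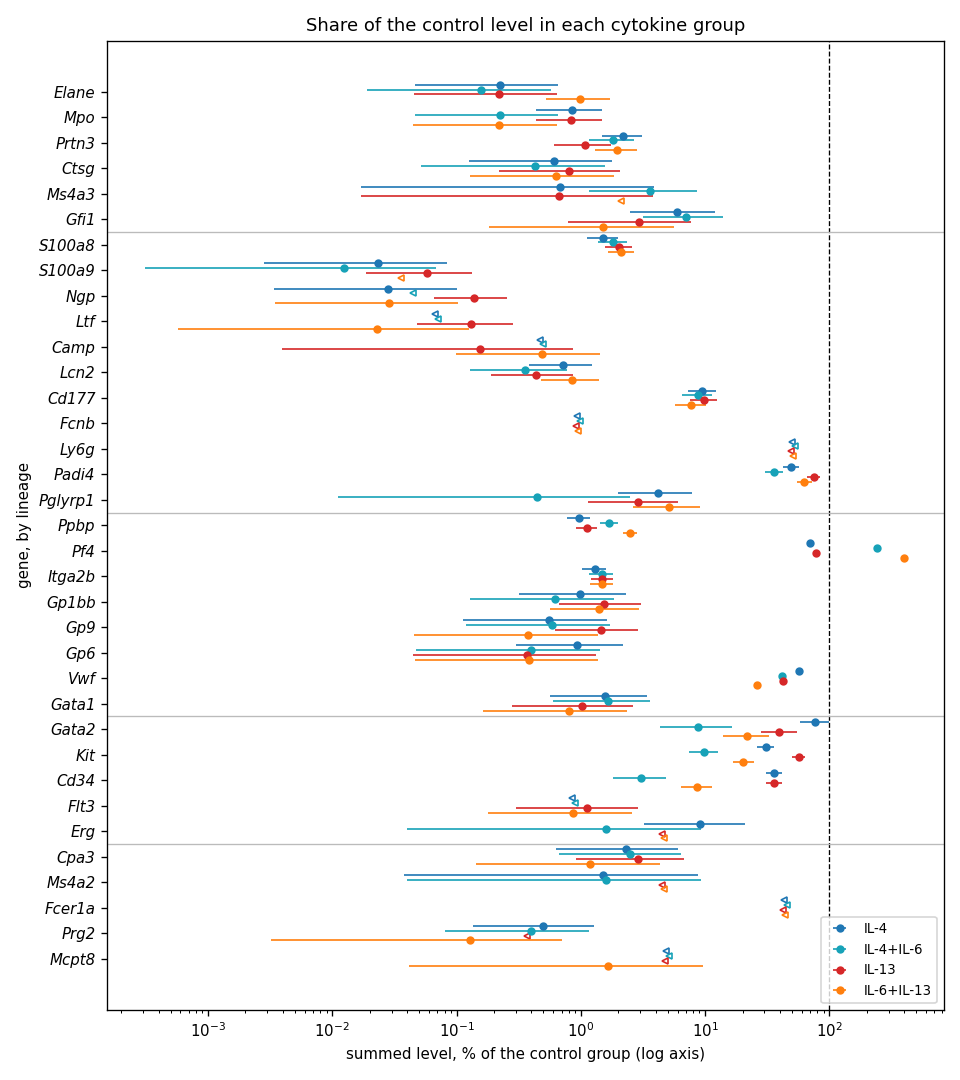
Summed level of each gene in each cytokine group as a percentage of the control group (log axis; the dashed line marks 100%), with 95% counting intervals as bars. Open triangles mark the upper limit of 3 counts over a group in which all libraries were at 0. Most genes lie below 5%, and only Pf4 lies to the right of the line, with IL-4+IL-6 and IL-6+IL-13.

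Among the neutrophil genes, the primary granule group held Elane, Prtn3 and Ctsg (neutrophil elastase, proteinase 3 and cathepsin G, the serine proteases of these granules), Mpo (myeloperoxidase), Ms4a3 (a membrane protein of granulocyte and monocyte progenitors) and Gfi1 (a repressor needed for neutrophil differentiation). Elane had 452, 476 and 415 counts in control. With IL-4 it had 0, 2 and 1 counts, with IL-4+IL-6 0, 1 and 1, with IL-13 0, 2 and 1, and with IL-6+IL-13 2, 11 and 0. The 11 counts of IL-6+IL-13 replicate 2 made up most of the 21 counts in all cytokine libraries. Over the 12 libraries Elane was at 0.398% of control (interval, 0.245 to 0.610%).

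Mpo went from 430, 551 and 430 counts to between 0 and 8, or 0.541% of control (0.364 to 0.776%). Ctsg went from 179, 167 and 146 counts to between 0 and 4, and Ms4a3 from 45, 54 and 48 counts to between 0 and 4. Prtn3 kept a little more. Its counts were 494, 517 and 460 in control, 13, 10 and 9 with IL-4, 9, 5 and 11 with IL-4+IL-6, 10, 4 and 2 with IL-13, and 7, 9 and 12 with IL-6+IL-13, so that every cytokine library held at least 2 counts and the share was 1.75% (1.41 to 2.14%). The annotated Prtn3 gene overlaps Plppr3 on the opposite strand, which had 184 to 219 counts in control and 24 to 66 in the cytokine libraries; whether the counting used strand is not given in the sources used here, so reads of the pair cannot be told apart. Gfi1 was low throughout, with 41 to 51 counts in control and 0 to 6 in the cytokine libraries, and its share of 4.33% (2.66 to 6.78%) was the highest of the 6.

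The later neutrophil group ranged widely in what was left. S100a9 had 2745, 3121 and 2729 counts in control, and 8 counts in all 12 cytokine libraries together, 5 of them with IL-13. With IL-6+IL-13 all 3 libraries were at 0, at least 2793-fold lower than control against a floor of 3 counts over the group. S100a8, the partner subunit of S100a9 in calprotectin, behaved differently in its remainder. It had 1125, 1239 and 970 counts in control, 20, 14 and 16 with IL-4, 18, 24 and 15 with IL-4+IL-6, 25, 20 and 23 with IL-13, and 19, 23 and 27 with IL-6+IL-13. Each cytokine library thus held S100a8 and at most 4 counts of S100a9. The shares over the 12 libraries were 1.86% (1.63 to 2.12%) for S100a8 and 0.0237% (0.0102 to 0.0467%) for S100a9, and these counting intervals do not overlap. IL-6 co-addition did not pass the test for S100a8 on IL-4 (log2 difference 0.27, SE 0.25, adjusted p = 0.461 in the edgeR fit) or on IL-13 (0.08, SE 0.23, adjusted p = 0.868).

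S100a8 and S100a9 are 22596 bases apart on chromosome 3 (GRCm38, chr3:90668978-90670035 on the plus strand and chr3:90692632-90695721 on the minus strand). Their RefSeq promoter windows (GRCm38.p6, 250 bases before to 50 after the annotated start, chr3:90668821-90669120 plus and chr3:90695672-90695971 minus) are shown because the pair was high together in control while each cytokine library held at least 14 counts of S100a8 and at most 4 of S100a9. Capitals mark TATAAA, the core of a TATA box, and AGATAA, a site recognized by GATA factors, both searched on both strands.
S100a8: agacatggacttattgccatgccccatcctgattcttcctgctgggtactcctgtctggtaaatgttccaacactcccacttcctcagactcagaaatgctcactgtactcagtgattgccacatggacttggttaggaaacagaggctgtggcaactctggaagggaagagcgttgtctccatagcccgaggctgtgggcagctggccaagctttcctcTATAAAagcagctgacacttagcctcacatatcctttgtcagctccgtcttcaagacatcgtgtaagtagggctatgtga
S100a9: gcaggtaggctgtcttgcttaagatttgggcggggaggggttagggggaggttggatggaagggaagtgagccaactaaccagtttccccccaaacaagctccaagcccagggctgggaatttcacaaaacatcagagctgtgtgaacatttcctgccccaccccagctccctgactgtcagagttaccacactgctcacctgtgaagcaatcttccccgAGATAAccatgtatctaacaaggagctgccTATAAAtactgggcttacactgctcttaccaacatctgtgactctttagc
TATAAA begins 30 bases before the start in S100a8 and at position 1 of the transcribed side in S100a9, and AGATAA was found in S100a9 alone of the pair, 30 bases before the start. Of 32851 windows in the whole table, 13.6% hold TATAAA and 11.2% hold AGATAA.

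Ngp and Ltf, of the secondary granules, were as low as S100a9 after treatment. Ngp, which encodes neutrophilic granule protein, had 2382, 2608 and 2185 counts in control and between 0 and 5 in the cytokine libraries (0.0496% of control, 0.0271 to 0.0833%). Ltf (lactoferrin) had 1491, 1641 and 1367 counts in control, all libraries at 0 with IL-4 and with IL-4+IL-6, 2, 3 and 1 counts with IL-13, and 0, 0 and 1 with IL-6+IL-13. The difference for Ltf was at least 1499-fold with IL-4 and at least 1415-fold with IL-4+IL-6 against the same floor. For S100a9, Ngp and Ltf the IL-13 libraries held 5, 10 and 6 counts over the group, more than any other cytokine group, though at most 0.137% of control. Camp, Lcn2 and Pglyrp1 went the other way, with 1, 8 and 7 counts with IL-13 against 3, 15 and 12 with IL-6+IL-13. All of these are small counts.

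Camp, the precursor of the antimicrobial peptide cathelicidin, went from 205, 231 and 200 counts to between 0 and 2. Lcn2, the iron-chelating lipocalin of secondary granules, went from 649, 609 and 545 counts to between 0 and 10, or 0.593% of control (0.426 to 0.804%). Fcnb, which encodes ficolin-B, had 103, 127 and 92 counts in control and 0 in all 12 cytokine libraries, at least 422-fold lower over those libraries. Pglyrp1, a bactericidal peptidoglycan recognition protein of the granules, had 92, 94 and 54 counts in control and between 0 and 7 elsewhere. Ly6g, the antigen used to gate mouse neutrophils, had 1, 1 and 4 counts in control and 0 elsewhere, which is too few to show a difference at this depth.

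Cd177 and Padi4 kept larger shares than the other later neutrophil genes. Cd177, a surface glycoprotein of neutrophils, had 257, 247 and 213 counts in control, 19, 24 and 25 with IL-4, 23, 21 and 15 with IL-4+IL-6, 22, 22 and 27 with IL-13, and 15, 22 and 17 with IL-6+IL-13. Its share lay between 7.73 and 9.77% in the 4 groups, and IL-6 co-addition did not pass the test on IL-4 (log2 difference -0.12, SE 0.23, adjusted p = 0.746) or on IL-13 (-0.34, SE 0.23, adjusted p = 0.374). Padi4, the peptidylarginine deiminase that citrullinates histones (chr4:140745865-140774236), had 194, 205 and 194 counts in control, 117, 89 and 86 with IL-4, 83, 58 and 60 with IL-4+IL-6, 130, 184 and 136 with IL-13, and 99, 145 and 120 with IL-6+IL-13. One IL-13 library reached into the control range, whereas the libraries of the other 3 groups lay below control. The log2 differences from control were -1.02 (SE 0.18) with IL-4, -1.48 (SE 0.19) with IL-4+IL-6, -0.41 (SE 0.17) with IL-13 and -0.67 (SE 0.18) with IL-6+IL-13, and the call with IL-13 was lost in 14 of 21 alternative fits. The shift with IL-6 was -0.45 (SE 0.20, adjusted p = 0.0799) on IL-4 and -0.26 (SE 0.18, adjusted p = 0.340) on IL-13, so neither passed the test.

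Among the megakaryocyte and platelet genes, the receptor genes were uniformly low after treatment. Itga2b, the alpha chain of the platelet fibrinogen receptor, had 2343, 1984 and 1960 counts in control, 28, 18 and 35 with IL-4, 28, 24 and 35 with IL-4+IL-6, 33, 41 and 21 with IL-13, and 34, 33 and 23 with IL-6+IL-13. Its share was 1.29 to 1.49% in all 4 groups, the narrowest range, as a ratio of highest to lowest, of any member with over 10 counts in each cytokine library. IL-6 co-addition shifted it by 0.19 (SE 0.27, adjusted p = 0.633) on IL-4 and by -0.02 (SE 0.26, adjusted p = 0.970) on IL-13.

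Gp9 and Gp1bb encode subunits of the receptor for von Willebrand factor, Gp6 encodes a collagen receptor, and Gata1 encodes the transcription factor of megakaryocytes and erythroid cells. Gp9 went from 205, 198 and 142 counts to between 0 and 5, Gp1bb from 184, 146 and 180 to between 0 and 4, Gp6 from 208, 186 and 144 to between 0 and 3, and Gata1 from 129, 126 and 130 to between 0 and 4. Gp1bb overlaps Sept5 on the same strand, which had 60 to 77 counts in control and 13 to 50 in the cytokine libraries, so reads in the shared part may be split or dropped. Over the 12 cytokine libraries these 4 genes were at 0.520 to 1.26% of control.

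Ppbp and Pf4 encode the CXC chemokines CXCL7 and CXCL4, which platelets store in their alpha granules. The genes are neighbors on chromosome 5 (GRCm38, chr5:90768518-90770063 and chr5:90772435-90773383, both on the plus strand), with 2371 bases between them. They were at like levels in control and at very different levels after treatment, and their RefSeq promoter windows (GRCm38.p6, chr5:90768268-90768567 and chr5:90772185-90772484, plus strand, same span and capitals as above) are shown for that reason.
Ppbp: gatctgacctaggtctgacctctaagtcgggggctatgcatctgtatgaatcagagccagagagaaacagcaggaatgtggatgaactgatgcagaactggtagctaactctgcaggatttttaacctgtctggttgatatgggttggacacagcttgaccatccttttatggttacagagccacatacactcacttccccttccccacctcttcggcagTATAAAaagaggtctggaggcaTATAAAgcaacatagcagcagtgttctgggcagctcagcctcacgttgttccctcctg
Pf4: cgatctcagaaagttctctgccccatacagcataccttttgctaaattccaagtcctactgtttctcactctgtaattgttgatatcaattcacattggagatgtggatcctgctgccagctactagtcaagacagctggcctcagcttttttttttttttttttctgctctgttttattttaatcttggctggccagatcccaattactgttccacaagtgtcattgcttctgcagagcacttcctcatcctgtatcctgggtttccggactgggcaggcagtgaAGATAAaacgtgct
TATAAA was found in Ppbp, beginning 30 and 8 bases before the start, and not in Pf4. AGATAA was found in Pf4 at position 37 of the transcribed side and not in Ppbp. Of the 33 members with a window (Vwf and Prg2 had none), 9 hold AGATAA and 10 hold TATAAA, while the letters TTCNNNGAA, a core bound by STAT factors that reads the same on both strands, were found in Ctsg and Gp1bb alone among the members and in 8.30% of all windows. Other spacings between TTC and GAA were not searched. A match is a description of the letters and not a site in use.

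Ppbp had 3313, 3078 and 2756 counts in control, 44, 18 and 26 with IL-4, 36, 59 and 50 with IL-4+IL-6, 24, 44 and 36 with IL-13, and 76, 70 and 77 with IL-6+IL-13. Its share was thus 0.962% with IL-4 and 1.12% with IL-13, and with IL-6 it was 1.68% and 2.50%. On IL-13 the libraries with and without IL-6 did not overlap, and the log2 difference was 1.15 (SE 0.24, adjusted p = 0.00149 in the edgeR fit) and 0.94 without IL-13 replicate 1. On IL-4 the libraries overlapped, and the log2 difference of 0.80 (SE 0.27, adjusted p = 0.0241) was no longer called without IL-4 replicate 2 or 3 or without IL-4+IL-6 replicate 2 or 3 (adjusted p = 0.142, 0.0909, 0.107 and 0.0516).

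Pf4 showed another pattern. It had 1939, 1863 and 1568 counts in control, 1237, 1235 and 1309 with IL-4, 3979, 5241 and 2950 with IL-4+IL-6, 1612, 1251 and 1351 with IL-13, and 7175, 6325 and 7409 with IL-6+IL-13. The libraries with IL-6 lay above all others and above control. IL-6 raised Pf4 by 1.77 on the log2 scale on IL-4 (SE 0.16, adjusted p = 6.99e-08) and by 2.37 on IL-13 (SE 0.16, adjusted p = 4.15e-09), and both calls held in all 21 alternative fits, with lowest values of 1.51 (without IL-4+IL-6 replicate 2, the library highest in Pf4 of its group) and 2.31. Without IL-13 replicate 1 the latter was 2.47. Relative to control, Pf4 was at 70.4% with IL-4, 77.4% with IL-13, 240% with IL-4+IL-6 and 399% with IL-6+IL-13. The small difference with IL-13 (log2 -0.37, SE 0.16) was called here but not in 12 of 21 alternative fits. Pf4 made up most of the summed level of the 35 genes in the groups with IL-6, at 470 to 559 FPKM with IL-6+IL-13, while Ppbp next to it stayed between 3.46 and 3.94 FPKM in the same libraries.

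Vwf, which encodes von Willebrand factor, the adhesive protein of platelets and endothelium (chr6:125546774-125686679), had 3718, 3728 and 3630 counts in control, 2249, 2048 and 1995 with IL-4, 1508, 1037 and 1798 with IL-4+IL-6, 1350, 1675 and 1733 with IL-13, and 801, 1099 and 911 with IL-6+IL-13. It kept 56.8, 41.6, 42.4 and 26.0% of control in these groups. Unlike Pf4 it fell with IL-6, by 0.45 on the log2 scale on IL-4 (SE 0.14, adjusted p = 0.0174) and by 0.71 on IL-13 (SE 0.15, adjusted p = 0.00126), and in both settings each library with IL-6 lay below each library without it. Without IL-4 replicate 1 the former was no longer called (adjusted p = 0.0581), and without IL-4+IL-6 replicate 2, the library lowest in Vwf of its group, it was -0.29 (SE 0.11, adjusted p = 0.0426). Without IL-13 replicate 1 the latter was -0.82 (SE 0.15, adjusted p = 0.000547). The endothelial genes Cdh5, Pecam1 and Kdr of the stromal and endothelial list were at a mean of 0.105, 1.81 and 1.50 FPKM in control, against 13.1 ± 0.364 FPKM for Vwf. With IL-6+IL-13, where Vwf was lowest, they were at 0.263, 0.175 and 4.27 FPKM, and the whole list summed to 41.1 to 42.3 CPM, within its control range. Their part in the level of Vwf was not tested.

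**Figure D3:**
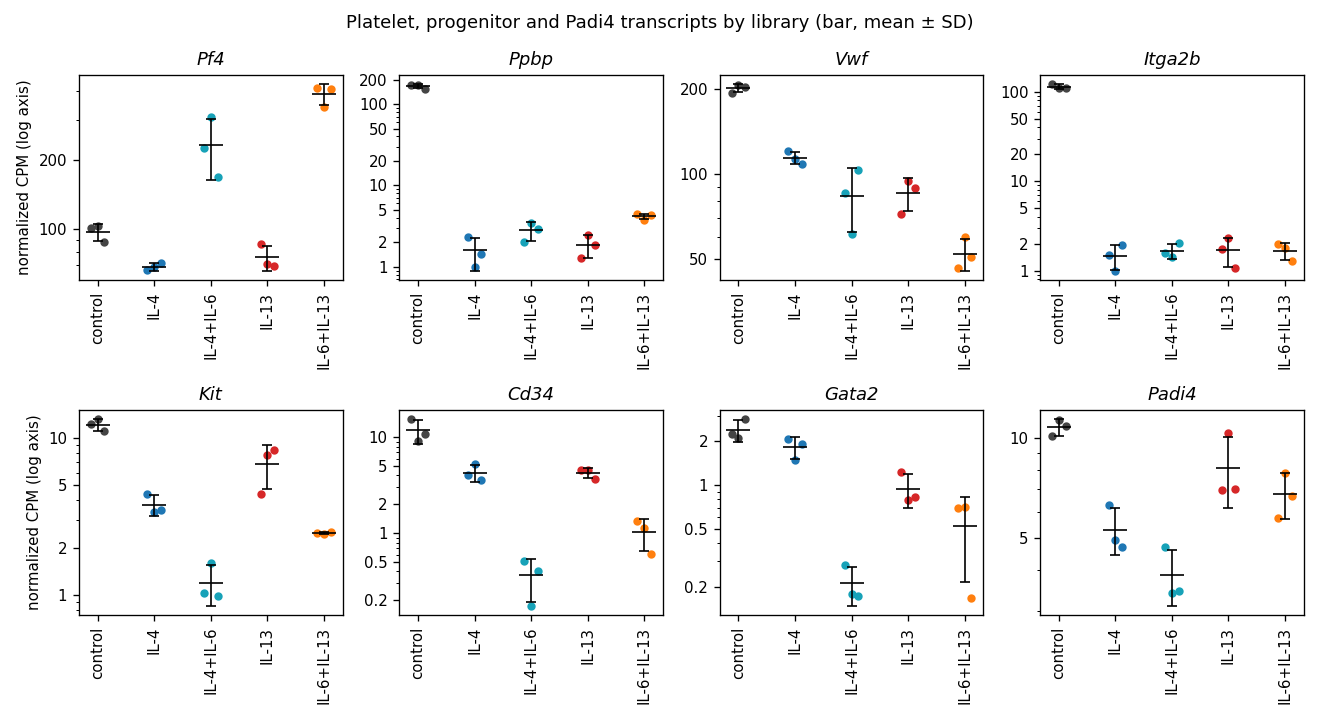
Normalized CPM (log axis, a scale of its own in each panel) of 8 members in the 15 libraries; points are libraries and bars are the mean ± SD (n = 3). Pf4 rises with IL-6 in both settings, Vwf, Kit and Cd34 fall with it in both, and Itga2b stays between 18 and 41 counts in all cytokine libraries.

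With IL-4 or IL-13 alone, the stem and progenitor genes fell into a pair near the limit of detection (Flt3 and Erg) and 3 that remained (Kit, Cd34 and Gata2); with IL-4+IL-6, Cd34 and Gata2 were near that limit too. Flt3, the receptor of the FLT3 ligand on early progenitors, had 149, 96 and 108 counts in control, 0 in all libraries with IL-4 and with IL-4+IL-6 (at least 118-fold and at least 111-fold lower), and at most 4 in a library with IL-13 or IL-6+IL-13. Erg, an ETS factor of stem cells and megakaryocytes, had 20, 15 and 31 counts in control and between 0 and 5 elsewhere.

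Kit, the receptor of stem cell factor (chr5:75574916-75656722), had 235, 238 and 198 counts in control, 82, 61 and 64 with IL-4, 18, 27 and 17 with IL-4+IL-6, 82, 139 and 163 with IL-13, and 43, 45 and 45 with IL-6+IL-13. In both settings the libraries with IL-6 lay below those without it. Kit fell with IL-6 by 1.65 on the log2 scale on IL-4 (SE 0.27, adjusted p = 8.24e-05) and by 1.47 on IL-13 (SE 0.22, adjusted p = 7.06e-05). Without IL-4+IL-6 replicate 2 the former was -1.92, and without IL-13 replicate 1, the library lowest in Kit of its group, the latter was -1.72. The difference between these 2 changes was -0.18 (SE 0.35, adjusted p = 0.875).

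Cd34, a sialomucin of stem and progenitor cells and of endothelium (chr1:194938819-194961279), had 298, 167 and 193 counts in control, 75, 95 and 65 with IL-4, 9, 3 and 7 with IL-4+IL-6, 86, 81 and 72 with IL-13, and 23, 21 and 11 with IL-6+IL-13. IL-4 and IL-13 alone left nearly the same share, 35.7 and 35.8% of control. With IL-6 the shares were 3.06% and 8.58%, and Cd34 fell by 3.52 on IL-4 (SE 0.36, adjusted p = 4.12e-07) and by 2.06 on IL-13 (SE 0.29, adjusted p = 3.90e-05) on the log2 scale. Without IL-4+IL-6 replicate 2 the former was -3.22, and without IL-13 replicate 1 the latter was -2.01. The larger change on IL-4 did not pass the test of the difference (-1.47, SE 0.52, adjusted p = 0.107).

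Gata2, the GATA factor of stem cells, progenitors and mast cells (chr6:88193891-88207032), was the member whose response to IL-6 differed between the settings. It had 43, 38 and 51 counts in control, 39, 27 and 35 with IL-4, 5, 3 and 3 with IL-4+IL-6, 23, 14 and 16 with IL-13, and 12, 13 and 3 with IL-6+IL-13. With IL-4 alone it was at 76.5% of control, the highest IL-4 library lying just below the lowest control library in normalized CPM, and it was the tested member not called lower there (log2 -0.39, SE 0.30). IL-6 lowered it by 3.07 on the log2 scale on IL-4 (SE 0.43, adjusted p = 1.85e-05; -2.98 without IL-4+IL-6 replicate 2), whereas the shift of -0.85 on IL-13 did not pass the test (SE 0.40, adjusted p = 0.136). The difference of these changes was -2.22 (SE 0.62, adjusted p = 0.0360). It rests on counts of at most 39 a library and was not called in 9 of the 12 fits that left out 1 IL-4, IL-4+IL-6, IL-13 or IL-6+IL-13 library.

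Over all members, IL-6 co-addition on IL-4 thus raised 2 (Ppbp and Pf4) and lowered 4 (Vwf, Kit, Cd34 and Gata2) of the 33 tested, where 20.7% of all genes were called higher and 18.7% lower. On IL-13 it raised 2 (Ppbp and Pf4) and lowered 3 (Vwf, Kit and Cd34), against 12.1% and 13.5% of all genes. In the difference between the IL-4 and the IL-13 setting 0 were called higher and 1 (Gata2) lower, against 3.22% and 4.42%. In the difference the members were near the share of all genes. The other shares cannot be read as a result about the members. Before IL-6 is considered, 17 members with IL-4 and 14 with IL-13 were at the limit of detection. Where tested, those passed the filter through the control libraries and could hardly be called lower with IL-6. With upper-quartile scaling the higher calls as a share of all called genes (higher and lower together) moved from 52.6% to 39.0% for IL-6 on IL-4 and from 42.2% to 31.7% for the difference, and 5 members in place of 4 were called lower with IL-6 on IL-4, while the other 5 counts of members stayed as given.

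A list of 12 cell cycle genes moved with IL-6 in the same libraries as Kit, Cd34 and Vwf. It summed to 1044 to 1237 CPM in control, 1055 to 1149 with IL-4, 430 to 480 with IL-4+IL-6, 1211 to 1293 with IL-13 and 576 to 620 with IL-6+IL-13, and all 12 genes were called lower with IL-6 in both settings. Its part in the lower progenitor genes was not tested. The basophil, mast cell and eosinophil genes had at most 4 counts in any cytokine library.

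Cpa3 (mast cell carboxypeptidase A3) had 64, 60 and 48 counts in control and between 0 and 3 elsewhere, or 2.22% of control over the 12 cytokine libraries (1.22 to 3.76%). Prg2, the eosinophil major basic protein, had 294, 276 and 236 counts in control and between 0 and 4 elsewhere (0.252%, 0.109 to 0.500%). Ms4a2, the beta chain of the high-affinity IgE receptor, had 26, 23 and 17 counts in control and at most 1 in any cytokine library. Mcpt8, the protease of basophils, had 22, 18 and 22 counts and 1 count in the 12 cytokine libraries. Fcer1a, the alpha chain of the IgE receptor, had 3, 0 and 4 counts in control and 0 elsewhere, which is too few to show a difference at this depth.

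**Figure D4:**
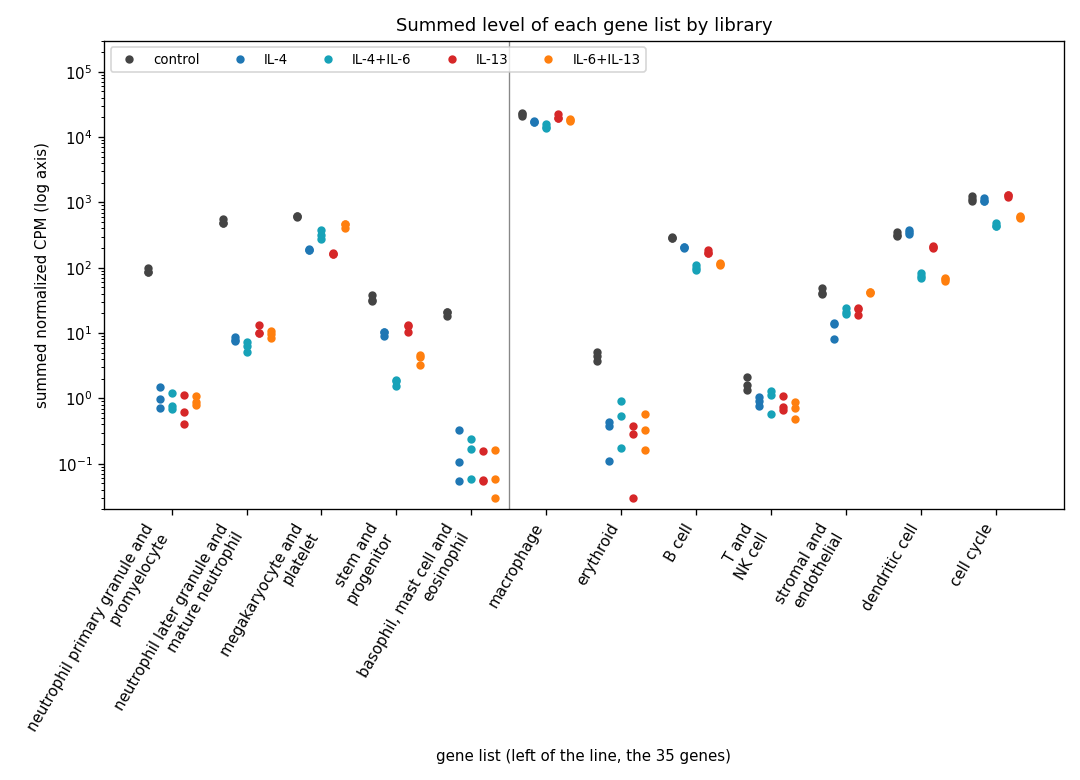
Summed normalized CPM (log axis) of the 5 groups of members, left of the line, and of 7 lists of other genes, for each library (points, colored by treatment; sums below 0.03 are drawn at 0.03). The primary granule sums fall from 85.5 to 101 CPM in control to at most 1.50 CPM in any cytokine library, while the macrophage list is at 13664 CPM or more in all libraries. Of its 12 genes, 5, 5, 3 and 4 were called lower than control with IL-4, IL-4+IL-6, IL-13 and IL-6+IL-13. In the same order, 3, 4, 6 and 8 were called higher.

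Other genes of these lineages, which are not members and were listed with the same earlier results known, were mixed. Of 18 other granulocyte genes, 17 were tested, and 13 were called lower and 2 higher with IL-4 and 14 lower and 2 higher with IL-13 than in control. The highest of them was Anxa1 (annexin A1, also made by macrophages), which had a mean of 257 FPKM in control and 878 with IL-4, followed by Csf3r (the G-CSF receptor) at 47.8 to 52.6 FPKM in control and a mean of 11.5 with IL-4. With IL-6, 3 of these 17 were called higher and 6 lower on IL-4, and 4 higher and 4 lower on IL-13. Csf3r rose by 1.60 on the log2 scale on IL-4 (SE 0.09, adjusted p = 1.18e-10 in the edgeR fit) and by 1.05 on IL-13 (SE 0.09, adjusted p = 7.64e-08), whereas Anxa1 fell by 1.38 (SE 0.10, adjusted p = 2.89e-09) and by 0.86 (SE 0.09, adjusted p = 1.71e-06).

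Of 18 other megakaryocyte and platelet genes, all tested, 15 were called lower with IL-4 and 15 with IL-13, against 3 and 1 higher. The highest were Plek (pleckstrin) at 104 FPKM in control and 120 with IL-4, and Thbs1 (thrombospondin 1) at 58.6 and 0.254 FPKM. With IL-6, 2 of the 18 were called higher and 4 lower on IL-4, and 2 higher and 2 lower on IL-13. Plek rose by 1.41 on the log2 scale on IL-4 (SE 0.07, adjusted p = 1.69e-11) and by 1.45 on IL-13 (SE 0.07, adjusted p = 2.70e-11).

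Of 18 other stem and progenitor genes, 15 were tested, and 10 were called lower and 4 higher with IL-4, and again with IL-13. Spi1 and Cebpa, transcription factors that macrophages also use, led the list at 134 and 64.4 FPKM in control and 171 and 56.5 FPKM with IL-4. With IL-6, 9 of these 15 were called lower and 0 higher on IL-4, and 4 lower and 0 higher on IL-13. Of 18 other basophil, mast cell and eosinophil genes, 9 were tested, of which 6 were called lower and 3 higher with IL-4 and with IL-13. Mitf, a factor that macrophages also use, and Siglecf led that list at 13.9 to 14.5 and 5.14 to 6.08 FPKM in control. With IL-6, 2 of the 9 were called higher and 4 lower on IL-4, and 2 higher and 3 lower on IL-13. Upper-quartile scaling gave 1 in place of 2 other megakaryocyte and platelet genes higher on IL-4 and 6 in place of 4 other stem and progenitor genes lower on IL-13. The background shares of all genes for these counts are those given above for the members.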

How the data were processed

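RNAseq was done on 15 BMDM libraries in 5 groups of 3. The authors deposited whole-number counts per gene, not normalized, for 53465 Ensembl identifiers, and, for each library, deposited FPKM of 26080 genes; these equal the count over gene length and library total. The submitters' processing notes name GRCm38, CASAVA, Bowtie2 2.2.3, HISAT2 2.1.0, TopHat2 and DESeq2, without roles. The counting tool, the annotation and the use of strand are not given in the sources used here. Positions were taken from GENCODE M21 (GRCm38) and promoter windows from RefSeq (GRCm38.p6).

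Counts were analyzed in 1 edgeR 4.0.16 fit of all libraries (R 4.3.3, filterByExpr with minimum count 10, TMM, glmQLFit and glmQLFTest, Benjamini-Hochberg over 13938 genes). The fit was run on simulated data whose changes were smaller and in fewer genes than here, so shifts of this size were not covered. Fitted log2 differences are given only where the mean was above 3 counts per library in each group compared. Shares of control used counts summed per group and exact intervals (scipy). The members and lists were chosen with earlier results of these data known. Members with a group mean of at least 1 normalized CPM and a call of at least 1 on the log2 scale were to be given library by library, which was shortened to a range where the cytokine libraries held few counts. Other genes were named for the 2 highest of each list by FPKM; the 3 endothelial genes of the stromal list were set beside Vwf after values were seen. Alternatives were DESeq2 1.42.0, upper-quartile scaling, no filter, a stricter filter (CPM of at least 1 in 3 libraries), a replicate block, fits of 9 libraries and leaving out each library; 2 scalings of the other lists' counts with IL-6 were added after seeing the data. The mouse strain and 1 gene of the erythroid list are not reported here by name.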

Additional observations from a re-analysis of the deposited data

Results flagged for a closer look

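Gata2 was the member whose change with IL-6 co-addition differed between the IL-4 and the IL-13 setting by the test of the difference itself (log2 -2.22, SE 0.62, adjusted p = 0.0360 in the edgeR fit over 13938 genes). The call was lost in 9 of the 12 fits that left out 1 library of the 4 groups compared (adjusted p = 0.0511 to 0.131). Its counts were 39, 27 and 35 with IL-4 and 5, 3 and 3 with IL-4+IL-6, against 23, 14 and 16 with IL-13 and 12, 13 and 3 with IL-6+IL-13. All 3 libraries with IL-6 were below all 3 without it in both settings. The IL-13 setting began at 39.6% of the control level, the IL-4 setting at 76.5%.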

How the results depend on the processing

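The 12 fold changes of members called with IL-6 or in the difference of the IL-6 additions were each run under the alternatives, where 237 values kept direction and call, 14 kept the direction only and 0 reversed. The 14 were Gata2 in the difference (9), and Ppbp (4) and Vwf (1) with IL-6 on IL-4. Comparisons with control are left out of these counts, since the members were chosen by them. The number of members called higher with IL-6 on IL-4 was 1 to 2 when 1 library was left out. The number called lower in the difference was 2 with DESeq2 (Gata2 and Cd34), 3 with no filter on low counts (Gata2, Cd34 and Pf4) and 0 to 1 when 1 library was left out (Gata2, or Pf4 without IL-4+IL-6 replicate 2). Gata2 was lost without IL-4 replicate 1 or 3, any IL-4+IL-6 replicate, IL-13 replicate 2 or 3, or IL-6+IL-13 replicate 1 or 2 (adjusted p = 0.0511 to 0.131). Against control, the calls of Padi4 and Pf4 with IL-13 were lost in 14 and 12 of 21 alternatives. The former was lost when any control, IL-4 or IL-6+IL-13 library was left out, and also IL-4+IL-6 replicate 1 or 2 or IL-13 replicate 1 or 3, and with no filter on low counts, and the latter without control replicate 1 or 2, any IL-4 or IL-6+IL-13 library, IL-4+IL-6 replicate 1, or IL-13 replicate 2 or 3. The cause was not tested. With at most 10 counts as the limit of detection, 2 members were at it in control and 25 with IL-13.

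Same-numbered libraries of different groups did not deviate together (correlation over 0.1 in 3 of 30 pairs, and in 7 of 60 pairs with other numbers). This cannot show whether same-numbered libraries came from the same animal or culture, which the labels do not name. With a replicate block, 32 members were called lower with IL-13 over control in place of 33 (Pf4 was lost), and no other count of members called changed. Upper-quartile scaling shifted the median of all genes to -0.12 in IL-4+IL-6 over control. With no filter the higher calls in the difference were 31.5% of all called genes. Depth limits what can be said of members at 0, whose shares are upper limits.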
